A study of Homo sapiens with 15 samples.

Results

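*CHRDL1*, *GREM1*, *FST*, *DKK1*, *DKK3* and *SFRP1* encode secreted proteins grouped here as antagonists of the BMP, activin and Wnt pathways. *BMP2* and *BMP4* encode BMP ligands that some of these antagonists bind. These 8 genes were selected on their differences between *ANGPTL4* knockout (A4KO) and WT cells in these same libraries, so those differences are described below and were not tested. All 8 had values, among 17237 genes measured in at least 1 of the 2 cell lines. The CAKi-1 table, with 16296 genes, held 7 of them and had no row for *CHRDL1*. The 786O table, with 16188 genes, held 5 of them and had no row for *FST*, *DKK1* or *SFRP1*. *GREM1*, *DKK3*, *BMP2* and *BMP4* were the 4 present in both.

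RNA-seq of poly(A) RNA was performed on CAKi-1 and 786O, human cell lines of clear cell renal cell carcinoma (ccRCC). CAKi-1 carries WT *VHL* and 786O mutant *VHL*, the gene for the ubiquitin ligase subunit that targets hypoxia-inducible factors for degradation. The question was how loss of ANGPTL4, a secreted inhibitor of lipoprotein lipase, changes transcription. CAKi-1 gave 9 libraries (4 WT, 5 A4KO) and 786O gave 6 (3 of each genotype), all from untreated cells in growing culture. A4KO cells were combined clones that had lost *ANGPTL4* mRNA after transfection with a nuclease protein and a guide RNA. The 786O WT cells were combined clones from the same transfection without that loss. For CAKi-1 WT, the series record describes combined clones and the methods describe parental cells, so the group may differ from A4KO in cloning as well as in *ANGPTL4*. Culture medium was likewise given as RPMI in the labels and DMEM in the methods. Nothing states whether replicates came from separate cultures or clones, so the p-values below measure only the spread between these libraries, which may be technical.

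Values are in TPM, a transcript abundance scaled for transcript length and library total, so levels can be compared between genes. *ANGPTL4* was 79.2 ± 7.06 TPM (SD, n = 4) in CAKi-1 WT and 4.47 ± 2.20 (n = 5) in A4KO. In 786O it was 18.8 ± 1.58 (n = 3) and 2.07 ± 0.185 (n = 3). CAKi-1 A4KO replicates 1 and 4 stood apart from the other 3, with *ANGPTL4* at 7.26 and 6.47 TPM against 2.87 to 2.90, so CAKi-1 values that change in sign, call or by over 1.5 times without them are also given without them. Renal epithelial and ccRCC markers summed to 5308 to 6379 TPM in CAKi-1 WT and 2788 to 3717 in A4KO, with 9 of 11 measured and *PAX2* and *CA9* without a row. In 786O all 11 were measured, and they summed to 5637 to 5839 TPM in WT and 4350 to 4399 in A4KO. In both lines stretches of the genome also shifted together. The neighbours of *DKK3* moved by -0.22 in each line and those of *BMP4* by -0.87 in 786O. A neighbour-centred difference is therefore given where it matters. It was computed after subtracting, in every library, the median shift of the nearest 25 expressed genes upstream and downstream.

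BMPs are ligands of the TGF-beta superfamily that bind type I and type II receptor kinases, which phosphorylate SMAD proteins that then induce genes such as *ID1*. Secreted antagonists bind BMPs or activins outside the cell and keep them from their receptors. Wnt proteins bind Frizzled receptors with the co-receptors LRP5 and LRP6 and stabilize beta-catenin. DKK1 blocks the co-receptors, and SFRP proteins bind Wnts directly. Both pathways act in kidney development, and their secreted antagonists are often altered in renal cancers.

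Promoter sequence, 250 bases before to 50 after a RefSeq start site (GRCh38.p14), was matched by symbol for 5 of the 7 members looked up, *CHRDL1*, *GREM1*, *FST*, *DKK1* and *BMP4*, and had no entry for *DKK3* and *BMP2*. The 3 shown are those of the antagonists that, among members with an entry, had the largest fold differences in TPM described below, so that the base composition and the sites searched can be read. They are CHRDL1 at chrX:110795768-110796067 on the minus strand, the first GREM1 start at chr15:32717754-32718053 on the plus strand and DKK1 at chr10:52314031-52314330 on the plus strand, and capitals mark a CCAAT match.
CHRDL1: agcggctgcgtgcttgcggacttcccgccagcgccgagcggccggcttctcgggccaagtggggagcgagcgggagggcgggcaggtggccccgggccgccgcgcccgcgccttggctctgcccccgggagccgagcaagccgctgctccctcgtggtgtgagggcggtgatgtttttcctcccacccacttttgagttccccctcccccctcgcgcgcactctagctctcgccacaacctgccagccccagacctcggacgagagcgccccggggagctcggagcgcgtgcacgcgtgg
GREM1: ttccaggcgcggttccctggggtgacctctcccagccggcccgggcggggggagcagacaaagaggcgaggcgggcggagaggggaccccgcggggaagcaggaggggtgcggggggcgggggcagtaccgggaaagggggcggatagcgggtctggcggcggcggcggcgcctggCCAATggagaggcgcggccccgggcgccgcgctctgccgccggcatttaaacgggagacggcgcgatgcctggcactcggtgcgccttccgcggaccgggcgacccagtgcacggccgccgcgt
DKK1: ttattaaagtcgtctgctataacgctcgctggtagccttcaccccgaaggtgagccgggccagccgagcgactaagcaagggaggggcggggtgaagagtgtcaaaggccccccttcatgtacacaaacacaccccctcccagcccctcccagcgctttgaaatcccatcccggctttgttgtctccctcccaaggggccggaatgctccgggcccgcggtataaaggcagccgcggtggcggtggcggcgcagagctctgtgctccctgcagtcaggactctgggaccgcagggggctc
All 3 were rich in G and C, at 73.7%, 77% and 63.7%, where the median of 35116 promoters was 58.67%. CG dinucleotides numbered 36, 42 and 20, above the median of 14. Searched on both strands for the TCF/LEF motif CTTTGAT, the AP-1 motif TGANTCA and CCAAT, the *CHRDL1* and *DKK1* windows held none and the *GREM1* window held 1 CCAAT, at bases -74 to -70 from the start site. The *FST* window held 1 AP-1 motif at -160 to -154 and 1 CCAAT at -196 to -192, and the sites did not overlap. Over all promoters, 2.62% held the TCF/LEF motif, 7.71% the AP-1 motif and 34.6% CCAAT.

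Among the antagonists of BMPs and activins, *CHRDL1* had the largest fold difference of all the members. Chordin-like 1 binds BMPs and blocks their signaling. The gene (ENSG00000101938.15) lies on chromosome X from 110673856 to 110795819 on the minus strand of hg38 in GENCODE release 44, with 12 exons in the canonical transcript. In 786O WT libraries *CHRDL1* was at 126.4, 129.7 and 123.1 TPM. In A4KO libraries it was at 0.416, 0.627 and 0.425 TPM. The WT libraries were tightly grouped, every A4KO library was near the bottom of the range, and the groups were far from overlapping. The mean was 258-fold lower in A4KO (126.4 ± 3.30 against 0.489 ± 0.119 TPM, SD, n = 3 each). On the log2(TPM + 1) scale used for every difference here, A4KO minus WT, it was -6.42 (SE 0.063), and -7.76 with a pseudocount of 0.1. Its neighbours on the chromosome hardly moved, by -0.013.

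Gremlin 1, encoded by *GREM1* (ENSG00000166923.12, chromosome 15, 32718004 to 32745106, plus strand, 2 exons), binds BMP2, BMP4 and BMP7. Of all members it had the largest fold difference in CAKi-1. WT libraries held 0.715, 1.28, 1.63 and 2.15 TPM. A4KO libraries held 13.7, 13.3, 14.998, 10.2 and 14.3 TPM. All 5 A4KO libraries were above every WT library, with replicate 4 the lowest of them. The mean was 9.20-fold higher in A4KO (1.45 ± 0.605 TPM, n = 4, to 13.3 ± 1.83, n = 5), a log2 difference of 2.57 (SE 0.17), or 2.67 (SE 0.19) without A4KO replicates 1 and 4. In 786O *GREM1* was at 0.029, 0.030 and 0.027 TPM in WT and 0.021, 0.011 and 0.022 in A4KO. The groups did not overlap, but every value was far below 1 TPM and the log2 difference was -0.015 (SE 0.031), within its own error.

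Follistatin, encoded by *FST* (ENSG00000134363.12, chromosome 5, 53480626 to 53487134, plus strand, 6 exons), binds activins and, less tightly, BMPs. CAKi-1 WT libraries held 0.096, 0.058, 0.106 and 0.093 TPM. A4KO libraries held 0.028, 0.166, 0.112, 0.040 and 0.072 TPM. *FST* was thus hardly measured in either group, and the A4KO libraries lay on both sides of the WT range. The log2 difference was -0.0076 (SE 0.051), or 0.036 (SE 0.045) without A4KO replicates 1 and 4.

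The genes grouped as Wnt antagonists did not move together. *DKK1* (ENSG00000107984.10, chromosome 10, 52314281 to 52318042, plus strand, 4 exons) encodes Dickkopf 1, which binds LRP5 and LRP6. CAKi-1 WT libraries held 19.1, 20.4, 12.8 and 11.2 TPM. A4KO libraries held 0.963, 3.88, 5.51, 1.26 and 5.19 TPM. Every A4KO library was below every WT library, and replicates 1 and 4, the libraries that stood apart, were the lowest of all. The mean was 15.9 ± 4.56 TPM (n = 4) in WT and 3.36 ± 2.15 (n = 5) in A4KO, 4.72-fold lower, with a log2 difference of -2.08 (SE 0.39). Without A4KO replicates 1 and 4 the A4KO mean was 4.86 ± 0.860 TPM (n = 3), 3.26-fold lower than WT, and the log2 difference was -1.49 (SE 0.22).

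*DKK3* (ENSG00000050165.19, chromosome 11, 11956207 to 12009769, minus strand, 7 exons) encodes a divergent member of the Dickkopf family and was the most abundant member in all 4 groups. In CAKi-1 it was at 150.4, 164.0, 147.8 and 146.4 TPM in WT. A4KO libraries held 74.96, 91.1, 100.6, 77.2 and 93.4 TPM. The groups did not overlap, and A4KO replicates 1 and 4 were again the lowest. The mean went from 152.2 ± 8.07 (n = 4) to 87.5 ± 11.0 (n = 5), a log2 difference of -0.80 (SE 0.092), and -0.58 after neighbour centring, the genes beside it having shifted by -0.22. In 786O the WT libraries held 172.6, 175.0 and 168.8 TPM and the A4KO libraries 19.5, 21.0 and 21.5. This was an 8.33-fold lower mean (172.1 ± 3.17 against 20.7 ± 1.06, n = 3 each), with a log2 difference of -3.00 (SE 0.047) and -2.78 after neighbour centring. *DKK3* was thus lower in A4KO in both lines, with no overlap in either.

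*SFRP1* encodes secreted Frizzled-related protein 1 (ENSG00000104332.12, chromosome 8, 41261962 to 41309473, minus strand, 3 exons). It went the other way from the Dickkopf genes in CAKi-1. WT libraries held 0.774, 1.30, 0.870 and 0.924 TPM, and A4KO libraries held 2.77, 4.27, 3.93, 3.46 and 4.22. The lowest A4KO library was above the highest WT library. The mean was 3.86-fold higher in A4KO (0.966 ± 0.229 TPM, n = 4, to 3.73 ± 0.625, n = 5), with a log2 difference of 1.26 (SE 0.11) and 1.39 (SE 0.089) without A4KO replicates 1 and 4.

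**Figure D1:**
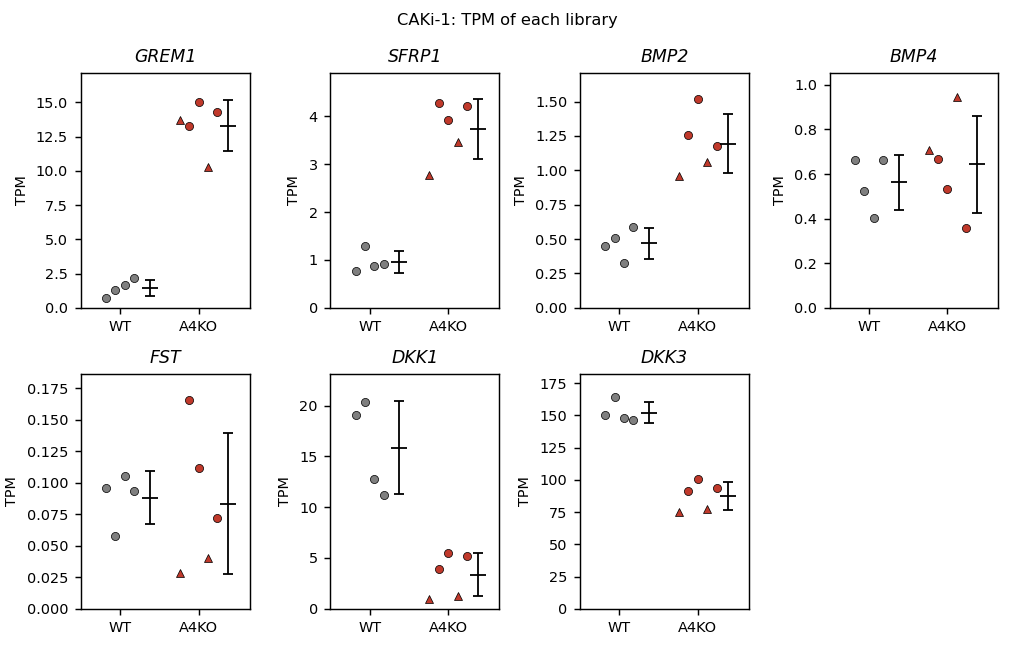
TPM of 7 members in each CAKi-1 library, WT in grey (n = 4) and A4KO in red (n = 5), each panel on its own axis from 0, with triangles for A4KO replicates 1 and 4 and bars for mean ± SD. *GREM1*, *SFRP1* and *BMP2* were higher and *DKK1* and *DKK3* lower in every A4KO library, and *FST* and *BMP4* overlapped.

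Of the BMP ligands, *BMP2* was higher in A4KO of CAKi-1 and lower in A4KO of 786O (ENSG00000125845.7, chromosome 20, 6767686 to 6780246, plus strand, 3 exons). In CAKi-1 it was at 0.450, 0.506, 0.326 and 0.590 TPM in WT. A4KO libraries held 0.957, 1.26, 1.52, 1.06 and 1.18 TPM. All A4KO libraries were above all WT libraries, with a mean 2.55-fold higher (0.468 ± 0.110 TPM, n = 4, to 1.19 ± 0.215, n = 5). Because these levels lie near the pseudocount, the log2 difference was 0.58 (SE 0.083) with a pseudocount of 1 and 1.19 with 0.1. In 786O *BMP2* was at 9.20, 8.83 and 9.32 TPM in WT and 4.70, 4.83 and 4.42 in A4KO. Here each A4KO library was below each WT library, with a 1.96-fold lower mean (9.12 ± 0.256 to 4.65 ± 0.212 TPM, n = 3 each). The log2 difference was -0.84 (SE 0.044), and -0.54 after neighbour centring, the neighbours having shifted by -0.30. Whether the effects on *BMP2* differ between the lines was not tested, because the gene was chosen on them.

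*BMP4* (ENSG00000125378.16, chromosome 14, 53949736 to 53958761, minus strand, 4 exons) overlapped between the groups in CAKi-1. WT libraries held 0.661, 0.525, 0.404 and 0.662 TPM, and A4KO libraries held 0.708, 0.668, 0.535, 0.945 and 0.360. The log2 difference was 0.065 (SE 0.10), and without A4KO replicates 1 and 4 its sign turned, at -0.041 (SE 0.089), as it did with quantile normalization, at -0.010. In 786O *BMP4* was at 3.57, 4.68 and 3.95 TPM in WT and 0.904, 0.713 and 0.485 in A4KO, without overlap. The mean was 5.80-fold lower (4.07 ± 0.562 to 0.701 ± 0.210 TPM, n = 3 each), with a log2 difference of -1.58 (SE 0.12), or -2.41 with a pseudocount of 0.1. The genes around it on chromosome 14 were lower as well, by a median of -0.87, and *BMP4* minus its neighbours was -0.71. The part of the neighbourhood in the difference of *BMP4* was not tested further.

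**Figure D2:**
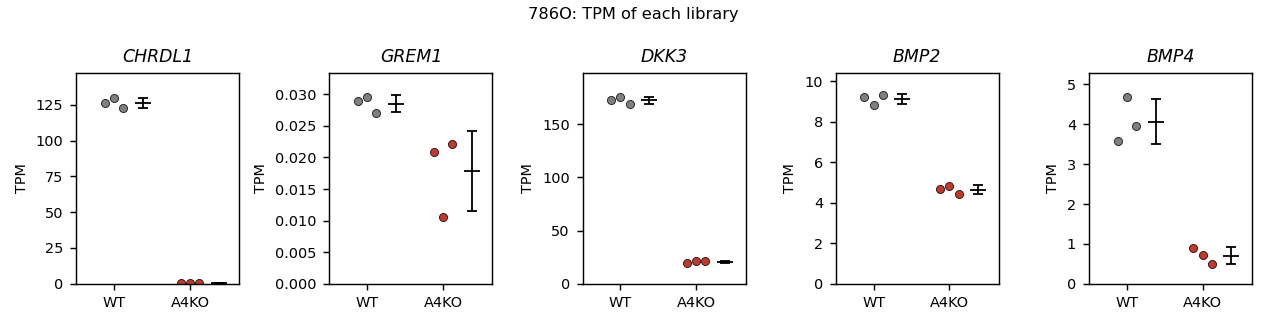
TPM of 5 members in each 786O library, WT in grey (n = 3) and A4KO in red (n = 3), each panel on its own axis from 0, with bars for mean ± SD. Every member was lower in all A4KO libraries, *CHRDL1* 258-fold, while *GREM1* stayed at or below 0.030 TPM in both groups.

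In CAKi-1 the 2 genotypes were fully separated for 5 of 7 members, 3 of them higher and 2 lower in A4KO, where 35.9% of all genes were so separated. In 786O they were separated for 5 of 5, all lower, beside 66.9% of all genes. The members were selected on this contrast, so nothing is read from these shares. Of the members, 5 in CAKi-1 and 4 in 786O had a mean of at least 1 TPM in WT or A4KO, and no filter on low values was used. In bulk RNA, fewer cells that make a transcript and less of it in each cell cannot be told apart, and the A4KO cells were combined clones.

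**Figure D3:**
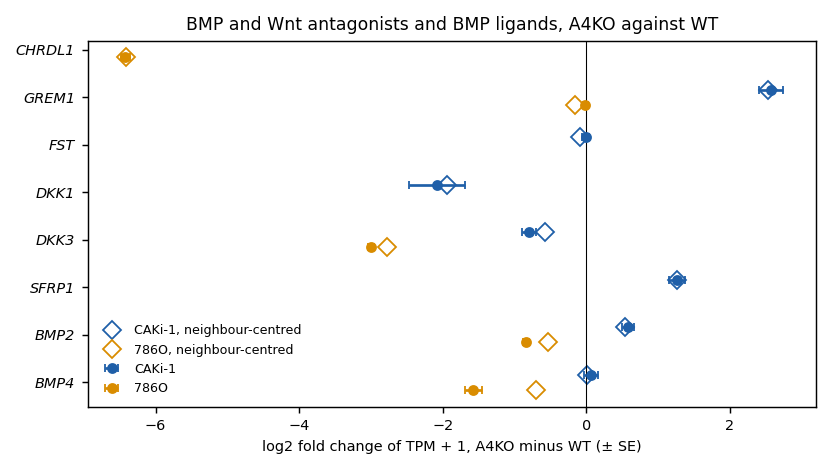
Difference A4KO minus WT of each member on the log2(TPM + 1) scale (horizontal axis), with filled points and SE bars for CAKi-1 (blue) and 786O (orange) and open diamonds for neighbour-centred values. *CHRDL1* lies at -6.42 in 786O and *GREM1* at 2.57 in CAKi-1, and centring moves *BMP4* in 786O from -1.58 to -0.71.

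Ordered by mean level, CAKi-1 WT cells held most *DKK3* (152.2 TPM), then *DKK1* (15.9), *GREM1* (1.45), *SFRP1* (0.966), *BMP4* (0.563), *BMP2* (0.468) and *FST* (0.088). The ranges of *GREM1* and *SFRP1* overlapped, as did those of *BMP4* and *BMP2*. In CAKi-1 A4KO the order was *DKK3* (87.5 TPM), *GREM1* (13.3), *SFRP1* (3.73), *DKK1* (3.36), *BMP2* (1.19), *BMP4* (0.643) and *FST* (0.084), with *SFRP1* and *DKK1* overlapping, as well as *DKK1* and *BMP2*. *GREM1* thus stood above *DKK1* in A4KO and below it in WT. Without A4KO replicates 1 and 4 the A4KO mean of *DKK1* (4.86 TPM) was above that of *SFRP1* (4.14), with ranges still overlapping. *DKK1* and *BMP2* then no longer overlapped. In 786O WT the order was *DKK3* (172.1 TPM), *CHRDL1* (126.4), *BMP2* (9.12), *BMP4* (4.07) and *GREM1* (0.029), with no neighbours overlapping. In 786O A4KO it was *DKK3* (20.7 TPM), *BMP2* (4.65), *BMP4* (0.701), *CHRDL1* (0.489) and *GREM1* (0.018), and *BMP4* and *CHRDL1* overlapped. Side by side, the WT means of *BMP2* and *BMP4* were higher and that of *GREM1* lower in 786O than in CAKi-1. These levels come from separate tables and were not tested against each other.

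The other genes of the BMP, activin and Wnt pathways were taken from 8 lists with 135 genes, without the members, of which 111 had values in either line. They were tested with limma across all genes of a line and called where the log2 difference was 1 or more in size with adjusted p up to 0.05. In CAKi-1, 12 of 102 measured pathway genes passed, 7 up and 5 down in A4KO. Over all CAKi-1 genes the share called was 3.33%, with 2.21% up in A4KO and 1.12% down, and the pathway counts were also 7 and 5 without A4KO replicates 1 and 4. In 786O, 20 of 95 were called, 7 higher and 13 lower, where 7.62% of all genes were called, 2.43% higher and 5.19% lower. The median log2 difference of the pathway genes was -0.015 in CAKi-1 and -0.11 in 786O, beside -0.0078 and -0.030 for all genes. With quantile normalization the medians in 786O were -0.032 for the pathway genes and 0.023 for all genes.

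BMP target genes were, on the adjusted p alone, the list with most genes higher in A4KO in both lines. In CAKi-1, 2 of 10 were called higher and 0 lower, with a median log2 difference of 0.71. On the adjusted p alone, 7 were higher and 0 lower, and without A4KO replicates 1 and 4 these counts were 7 and 2. Of all CAKi-1 genes, 17.9% were higher and 21.1% lower on the adjusted p alone. *ID1*, a helix-loop-helix inhibitor of differentiation factors and a direct SMAD target, rose from 96.8 ± 16.1 TPM (n = 4) to 328.6 ± 104 (n = 5), by 1.71 (SE 0.22, adjusted p = 0.000365), or by 1.40 without A4KO replicates 1 and 4. *ID3*, of the same family, rose by 1.10 (SE 0.21, adjusted p = 0.00329), and by 0.95 without A4KO replicate 1 and 0.80 without A4KO replicates 1 and 4, both under the fold threshold. *ID2* differed by 0.56 (SE 0.20, adjusted p = 0.0509) and *SMAD7*, an inhibitory SMAD, by -0.076 (SE 0.19, adjusted p = 0.779), and neither was called. Without A4KO replicates 1 and 4 *ID2* differed by 0.31 and *SMAD7* by -0.36 (SE 0.087, adjusted p = 0.014), under the fold threshold. *SMAD6*, the other inhibitory SMAD, differed by 0.86 (SE 0.20, adjusted p = 0.00838), or 0.55 without A4KO replicates 1 and 4.

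In 786O, 5 of 11 BMP target genes were called, 4 higher and 1 lower, with a median of 0.46. On the adjusted p alone 7 were higher and 2 lower, beside 27.5% and 33.5% of all 786O genes. With quantile normalization 9 were higher and 2 lower, and the balance of all 786O genes turned, from 4450 higher and 5424 lower to 5274 and 4469. *ID2* rose from 95.2 ± 4.04 to 303.7 ± 12.2 TPM (n = 3 each), by 1.66 (SE 0.050, adjusted p = 2.09e-06). *ID3* rose by 1.27 (SE 0.038, adjusted p = 2.04e-06) and *SMAD6* by 1.10 (SE 0.039, adjusted p = 3.72e-06). *MSX2*, a homeobox gene named after its value was seen, rose from 0.356 ± 0.119 to 3.09 ± 0.255 TPM, by 1.59 (SE 0.079, adjusted p = 1.29e-05), or by 2.84 with a pseudocount of 0.1. *RUNX2*, a transcription factor of bone formation, fell by 1.13 (SE 0.050, adjusted p = 8.17e-06). After neighbour centring 3 were called higher and 0 lower, with *SMAD6* at 0.85 and *RUNX2* at -0.86. *ID1* differed by 0.92 (SE 0.038, adjusted p = 6.18e-06), under the fold threshold.

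Of the other antagonists of BMPs and activins, 1 of 13 was called in CAKi-1 and 2 of 11 in 786O. *BMPER*, which binds BMPs and chordin, was lower in both lines. It went from 2.61 ± 0.548 to 0.332 ± 0.214 TPM in CAKi-1, and fell by 1.44 (SE 0.14, adjusted p = 8.76e-05). In 786O it went from 1.51 ± 0.228 to 0.207 ± 0.056 TPM and fell by 1.05 (SE 0.074, adjusted p = 5.15e-05), or by 0.84 after neighbour centring, 0.94 with quantile normalization and 0.98 without WT replicate 2, all under the fold threshold. With a pseudocount of 0.1 the log2 difference of *BMPER* was -2.81 in CAKi-1 and -2.40 in 786O. *KCP*, a chordin-like protein described as an enhancer of BMP signaling, rose in 786O by 1.22 (SE 0.047, adjusted p = 5.03e-06).

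Among the other BMP and activin ligands, 2 of 10 were called in CAKi-1 and 3 of 7 in 786O. *INHBA* encodes the subunit of activin A, a ligand that follistatin binds. It rose in CAKi-1 from 172.7 ± 25.8 to 513.0 ± 54.8 TPM, by 1.57 (SE 0.11, adjusted p = 1.8e-05), and in 786O it fell from 41.7 ± 0.777 to 14.1 ± 1.19 TPM, by 1.50 (SE 0.062, adjusted p = 6.67e-06). *GDF5*, a BMP-related ligand known from joint formation, fell in CAKi-1 by 2.24 (SE 0.22, adjusted p = 9.71e-05). *INHBB*, the subunit of activin B, fell in 786O by 3.48 (SE 0.040, adjusted p = 9.41e-08), and *BMP8B* rose there by 1.37 (SE 0.046, adjusted p = 3.02e-06).

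Of the receptors and SMADs, 1 of 17 was called in CAKi-1 and 2 of 17 in 786O. *SMAD3*, which carries activin and TGF-beta signals, fell in CAKi-1 from 124.2 ± 13.5 to 59.7 ± 1.81 TPM, by 1.04 (SE 0.071, adjusted p = 1.72e-05), and by 0.95 with quantile normalization and 0.97 without WT replicate 4, both under the fold threshold. *SMAD9*, a SMAD of the BMP branch, rose in 786O by 1.06 (SE 0.078, adjusted p = 6.26e-05), or by 0.72 after neighbour centring and 0.98 without A4KO replicate 1. The co-receptor gene *ENG* fell there by 1.16 (SE 0.062, adjusted p = 1.74e-05), or by 0.96 with quantile normalization. The BMP receptor genes *BMPR2* and *BMPR1A* were not called, with log2 differences of 0.17 and -0.28 in CAKi-1 and -0.36 and 0.18 in 786O. In CAKi-1 *BMPR2* was at -0.060 without A4KO replicates 1 and 4, and *BMPR1A* at -0.029 after neighbour centring.

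Wnt ligands and R-spondins were called in 2 of 11 cases in CAKi-1 and 4 of 11 in 786O, the latter all lower. *WNT7B*, a ligand of kidney collecting duct development, fell in both lines, from 15.8 ± 5.25 to 2.10 ± 0.780 TPM in CAKi-1 (by 2.41, SE 0.26, adjusted p = 0.000178) and from 61.3 ± 2.11 to 4.37 ± 0.351 TPM in 786O (by 3.54, SE 0.058, adjusted p = 2.88e-07). *WNT5B* fell in 786O from 38.8 ± 1.44 to 0.925 ± 0.166 TPM, by 4.37 (SE 0.070, adjusted p = 2.78e-07). *WNT5A*, a ligand known mainly for signaling without beta-catenin, rose in CAKi-1 by 1.09 (SE 0.099, adjusted p = 6.34e-05) and fell in 786O from 5.12 ± 0.656 to 0.573 ± 0.158 TPM, by 1.96 (SE 0.10, adjusted p = 1.57e-05), or by 2.97 with a pseudocount of 0.1. *WNT10B*, named after its value was seen, fell in 786O from 3.61 ± 0.321 to 0.491 ± 0.025 TPM, by 1.63 (SE 0.058, adjusted p = 3.75e-06), or by 2.65 with that pseudocount.

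Wnt receptors and co-receptors, the proteins that DKK1 acts on included, were not called in either line, 0 of 16 in CAKi-1 and 0 of 14 in 786O by limma. At an unadjusted p under 0.05, 4 were higher and 3 lower in CAKi-1, and 4 higher and 7 lower in 786O. At that threshold 22.4% of all genes were higher and 25.9% lower in CAKi-1, and 29.1% higher and 35.4% lower in 786O. With quantile normalization 1 of them was called higher in 786O.

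Other Wnt antagonists gave 1 call of 11 in CAKi-1 and 2 of 9 in 786O. *IGFBP4*, an insulin-like growth factor binding protein that can also inhibit Wnt receptors, rose in CAKi-1 from 22.2 ± 1.89 to 79.7 ± 18.4 TPM, by 1.77 (SE 0.15, adjusted p = 5.01e-05). *SFRP2*, of the family of *SFRP1*, fell in 786O from 20.1 ± 0.652 to 0.211 ± 0.052 TPM, by 4.12 (SE 0.047, adjusted p = 9.41e-08), and had no row in CAKi-1. *TRABD2A*, a protease that cleaves Wnts and was named after its value was seen, fell in 786O by 1.41 (SE 0.092, adjusted p = 3.73e-05).

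Wnt target and beta-catenin genes were called in 3 of 14 cases in CAKi-1, 2 higher and 1 lower, and in 2 of 15 in 786O, both lower. *LEF1*, a transcription factor that binds beta-catenin, rose in CAKi-1 from 0.255 ± 0.108 to 2.13 ± 0.413 TPM, by 1.31 (SE 0.11, adjusted p = 3.51e-05), or by 2.69 with a pseudocount of 0.1. *CCND1*, the gene of cyclin D1, fell there from 138.0 ± 10.7 to 39.0 ± 7.70 TPM, by 1.82 (SE 0.14, adjusted p = 2.52e-05). *TNFRSF19*, a receptor gene named after its value was seen, rose by 1.23 (SE 0.14, adjusted p = 0.000228). *AXIN2*, a feedback inhibitor induced by beta-catenin, fell in 786O from 4.86 ± 0.677 to 0.719 ± 0.043 TPM, by 1.76 (SE 0.085, adjusted p = 1.15e-05), and differed by 0.48 in CAKi-1 (0.89 with a pseudocount of 0.1), under the fold threshold. *TCF7*, a partner of beta-catenin named after its value was seen, fell in 786O by 1.49 (SE 0.056, adjusted p = 4.6e-06), and *NKD1* was at most 0.110 TPM in every library of both lines.

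**Figure D4:**
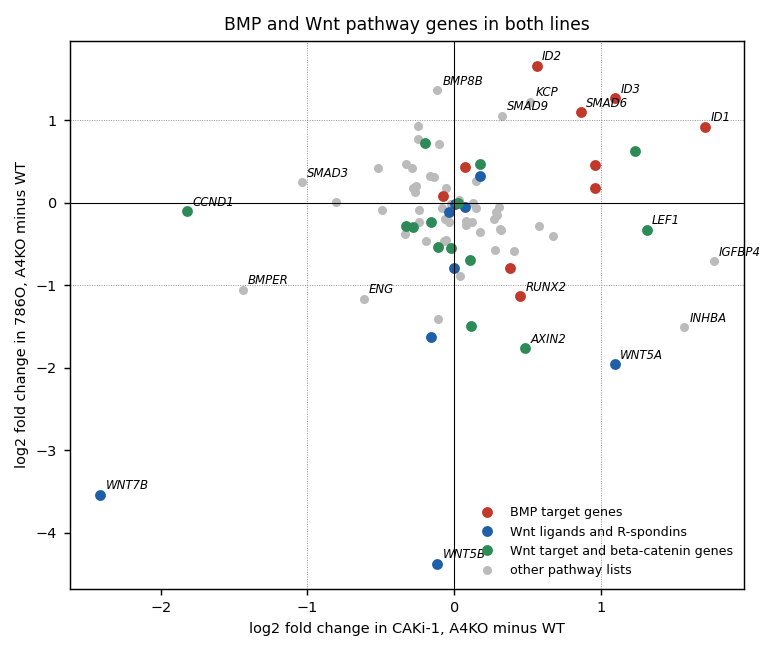
Log2 difference A4KO minus WT of pathway genes measured in both lines, CAKi-1 on the horizontal and 786O on the vertical axis, colored by list, with dotted lines at -1 and 1. *ID1*, *ID3* and *ID2* lie in the upper right, *WNT7B* in the lower left, and *INHBA* and *WNT5A* were higher in CAKi-1 and lower in 786O.

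The effect of A4KO was tested for a difference between the lines by an interaction term in limma over the 15247 genes of both tables, where 12.8% of all genes were called at the same thresholds. Of 86 pathway genes, 19 were called. *INHBA* (CAKi-1 minus 786O, 3.07, SE 0.15, adjusted p = 1.41e-09) and *WNT5A* (3.05, SE 0.15, adjusted p = 2.14e-09) were higher in A4KO of CAKi-1 and lower in A4KO of 786O. *WNT5B* differed by 4.26 (SE 0.32, adjusted p = 1.12e-07) and *AXIN2* by 2.25 (SE 0.12, adjusted p = 3.45e-09), both lower in 786O. The differences of *ID1* (0.79, SE 0.28, adjusted p = 0.0289), *ID3* (-0.17, SE 0.27, adjusted p = 0.615) and *BMPER* (-0.39, SE 0.19, adjusted p = 0.0987) were not called. Without CAKi-1 A4KO replicates 1 and 4 they were 0.47 for *ID1* (adjusted p = 0.0152), -0.47 for *ID3* (adjusted p = 0.019) and -0.27 for *BMPER* (adjusted p = 0.194), under the fold threshold, while *SMAD9* went from -0.73 without a call to -1.21 with one (adjusted p = 1.72e-05). *ID2* was called, with a difference of -1.10 (SE 0.26, adjusted p = 0.00281).

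Markers of other cell types were checked beside these results. Fibroblast markers, of which 7 of 10 had values in CAKi-1, summed to 24.5 to 34.4 TPM in WT and 48.8 to 73.1 in A4KO, and *COL3A1*, *THY1* and *POSTN* had no row. Of the 7, only *COL1A1*, the gene of a type I collagen chain, was called, from 10.2 ± 1.15 to 36.2 ± 5.63 TPM, while *LUM*, the gene of lumican, was at 3.63 ± 0.430 and 1.58 ± 0.432 TPM without a call and the groups overlapped for *COL1A2*, *DCN*, *PDGFRA*, *PDGFRB* and *FAP*. In 786O the fibroblast sum was 11.5 to 15.6 TPM in WT and 9.61 to 12.4 in A4KO, and there *LUM* was called lower (7.93 ± 1.22 to 1.28 ± 0.125 TPM) and *PDGFRB* higher (0.407 ± 0.073 to 4.69 ± 1.11 TPM). Leukocyte markers in CAKi-1 summed to 1.50 to 2.57 TPM in WT and 2.83 to 5.21 in A4KO, and in 786O to 3.55 to 3.89 and 0.675 to 1.45, where *CSF1R*, a receptor of macrophages, was called lower. Endothelial markers in CAKi-1 summed to 0.209 to 0.555 TPM in WT and 1.54 to 6.17 in A4KO, or 1.54 to 2.32 without A4KO replicates 1 and 4, where *PECAM1*, an adhesion molecule of endothelial cells and the only marker of that list with values, was called higher, and in 786O to 1.09 to 1.58 and 0.536 to 0.588. These markers were named after their values were seen, and *CD3E*, *CDH5* and *VWF* had no row in either line. The fibroblast, leukocyte and endothelial sums and *GREM1*, *SFRP1* and *BMP2* were all higher in A4KO than in WT of CAKi-1. The endothelial sum was *PECAM1* alone, and of the fibroblast markers *LUM* was lower. The part of these markers in the differences of *GREM1*, *SFRP1* and *BMP2* was not tested.

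The gene most like each member was found by Pearson's r of log2(TPM + 1) after the mean of each line was taken off, as a description. Over the 15 libraries *GREM1* was most like *SNAI2* (r = 0.988), a transcription factor of epithelial-mesenchymal transition, and *POU2F2* (0.984). *DKK3* was most like *MSN* (0.998), which encodes the membrane linker moesin, and *IL27RA* (0.995). *BMP2* was most like *DPYSL3* (0.983) and *BASP1* (0.980), and *BMP4* was most like *HOXB13* (0.979) and *MOCS1* (0.978). Of 13284 genes compared, 37 were above 0.95 for *GREM1*, 254 for *DKK3*, 22 for *BMP2* and 136 for *BMP4*. Only line means were taken off, so the difference between WT and A4KO that the members were selected on is part of every r. The 15 libraries fall into 4 groups, and these values were not tested. Over the 9 CAKi-1 libraries *DKK1* was most like *AXL* (0.997), a receptor tyrosine kinase gene, and *DNAJC11* (0.996). *SFRP1* was most like *RABGGTB* (0.991) and *DPYSL3* (0.991), and *FST* was most like *MAD2L2* (0.928) and *HMGXB4* (0.921). Over the 6 libraries of 786O *CHRDL1* was most like *CAMK1* and *SFRP2*, both at an r that rounds to 1, but 3218 of 12939 genes were above 0.95 there, since the libraries form 2 groups. In CAKi-1, 764 of 12983 genes were above 0.95 for *DKK1* and 133 for *SFRP1*, and for *FST* 0 of 12984 were.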

How the data were processed

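RNA-seq libraries of CAKi-1 (4 WT, 5 A4KO) and 786O (3 WT, 3 A4KO) were grouped by the genotype in the sample labels. Per the submitters' processing notes the reads were pseudoaligned to hg38 with kallisto and compared with limma, in versions not given in the sources used here. The authors deposited normalized values per gene for each line, taken as TPM from their sums of 961437 to 973887 per library, with 0 values at exactly 0. TPM keeps no read number, so the depth of a library is unknown, no counting interval can be given and tests for counts were not used.

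From the deposited TPM, log2(TPM + 1) was fitted per line by genotype (limma 3.58.1, lmFit then eBayes, R 4.3.3). Tests were two-sided, p-values were adjusted by Benjamini-Hochberg over every gene of the table, and low values were not filtered. Calls needed a log2 difference of 1 or more in size with adjusted p up to 0.05. Effects were compared between lines by an interaction term over all 15 libraries. The method was tested on simulated data. The 8 genes, the pathway lists and the markers were chosen with earlier results of these data known, so the 8 genes got no p-value. Genes named beside them were *ANGPTL4*, the largest called rise and fall of each list and line, 11 fixed genes (*ID1*, *ID2*, *ID3*, *SMAD6*, *SMAD7*, *AXIN2*, *LEF1*, *NKD1*, *INHBA*, *BMPR2* and *BMPR1A*), and the 2 most correlated genes of each member among those with a group mean of at least 1 TPM. Others are marked where they appear. Alternatives were a pseudocount of 0.1, a filter at 1 TPM, quantile normalization, trended robust eBayes, the adjusted p alone, leaving out each library, leaving out CAKi-1 A4KO replicates 1 and 4 together, a replicate block, and neighbour-centred values, with 25 genes on each side whose mean log2 was at least 1. Promoters were read from RefSeq (GRCh38.p14) and gene positions from GENCODE release 44. *SFRP1* promoter sequence was not used here.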

Additional observations from a re-analysis of the deposited data

Results flagged for a closer look

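Of 62 sets of CAKi-1 values checked, each of 1 gene in 1 group, 4 held a library far from the others. Chance gives about 1 in 20 for independent sets, but these sets share the same libraries, so that rate does not measure them. CAKi-1 WT replicate 4 was at 211.2 TPM for *INHBA*, 25.06 TPM for *IGFBP4* and 130.5 TPM for *ID3*, above the other WT libraries. CAKi-1 A4KO replicate 4 was at 0.1101 TPM for *NKD1*, above the other A4KO libraries, at a level where the gene was hardly measured.

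*GREM1* and *BMP2* went in opposite directions in the 2 lines, with no overlap of WT and A4KO libraries in either line, although *GREM1* in 786O lay within its own error. *GREM1* was at 2.572 in CAKi-1 and -0.01509 in 786O, and *BMP2* at 0.5774 and -0.8403 (log2 difference, A4KO minus WT). The difference between the lines was not tested for these genes, which were selected on it.

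For 12 named pathway genes the interaction term in limma called a difference between the lines. The effect in CAKi-1 minus that in 786O was 4.257 for *WNT5B*, 3.074 for *INHBA*, 3.053 for *WNT5A*, 2.478 for *IGFBP4*, 2.248 for *AXIN2*, 1.638 for *LEF1*, 1.579 for *RUNX2* and 1.125 for *WNT7B*. It was -1.713 for *CCND1*, -1.485 for *BMP8B*, -1.287 for *SMAD3* and -1.102 for *ID2*.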

How the results depend on the processing

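No called difference of a named pathway gene changed sign under the alternatives run, and among the members *FST* and *BMP4* in CAKi-1, whose groups overlapped and whose differences lay within their SE, did so without A4KO replicates 1 and 4, *BMP4* also with quantile normalization and *FST* also without WT replicate 3, A4KO replicate 1 or A4KO replicate 4. A pseudocount of 0.1 gave 1077 calls in CAKi-1 and 2095 in 786O, against 543 and 1233. The adjusted p alone gave 6348 and 9874 genes, and 43 and 67 pathway genes against 12 and 20. Leaving out each library in turn gave 477 to 608 calls in CAKi-1 and 1221 to 1243 in 786O, with 11 to 13 and 19 to 21 pathway genes. Quantile normalization moved the higher calls in 786O from 31.9% to 42.7%. Same-numbered libraries correlated at -0.062, 0.12, -0.037 and 0.14 in CAKi-1 and -0.046, 0.020 and 0.0078 in 786O after group means were taken off. Only CAKi-1 replicate 4 matched its own number best. These values give no sign of pairing by number, but groups this small cannot show that there is none. With the replicate block the calls were 603 in CAKi-1 and 1233 in 786O, and 13 and 20 pathway genes. In 12 cases a named gene fell under the fold threshold with an adjusted p still at most 0.05, of *SMAD3* and *ID3* in CAKi-1 and *BMPER*, *ENG*, *SMAD9*, *RUNX2* and *SMAD6* in 786O. The causes of these changes were not tested. Because TPM keeps no read number, the precision of members under 1 TPM is unknown.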
